A study of Mus musculus with 12 samples.

Results

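The genes described here are 10 mouse genes of enzymes that remove hydrogen peroxide and lipid peroxides or repair such enzymes. They are the peroxiredoxins Prdx1 to Prdx6, the glutathione peroxidases Gpx1 and Gpx4, the catalase Cat, and the sulfiredoxin Srxn1, which repairs peroxiredoxins. They were chosen by name, as all probe sets whose platform annotation gives one of these symbols, and not by any measured value. Of the 10 genes, 7 had a probe set listed for that gene alone, and all 7 were among the 8469 genes tested of 12393 genes on the array. These 7 had 15 probe sets among the 22690 on the array. Prdx1 is listed only on 5 probe sets that also name Gm21399, a pseudogene, and Prdx5 and Prdx6 are not analysed here.

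Liver RNA came from 12 adult male C57BL6/J mice aged 8 weeks, 3 in each of 4 groups, with 1 Affymetrix array for each liver. Wild-type mice received saline (mice 8, 9 and 10) or acetaminophen (APAP, the painkiller) at 100 mg/kg (mice 12, 13 and 14). Mice labelled liver-null for Txnrd1 received saline (mice 4, 5 and 16) or the same dose of APAP (mice 2, 3 and 17). Each mouse number used here is the number that ends the label, since every label also says mouse 8. All injections were into the peritoneum, and livers were taken 8 h later. In the liver-null mice a conditional allele of Txnrd1, the gene of cytosolic thioredoxin reductase, is cut by albCre, a Cre recombinase driven from the albumin promoter in hepatocytes, so the other cells of the liver keep the gene. The labels do not say whether the wild-type mice carried the conditional allele or the Cre. The values are log2 expression values made by the authors with RMA, which corrects background, normalizes arrays and combines the probes of a probe set.

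Peroxiredoxins reduce peroxides with a reactive cysteine, and most of them are then reset by thioredoxin, which thioredoxin reductase keeps reduced with NADPH. When that cysteine is oxidised too far, to a sulfinic acid, sulfiredoxin repairs it with ATP. Gpx1 and Gpx4 are selenoproteins that take electrons from glutathione instead, and catalase splits hydrogen peroxide in the peroxisomes, which are abundant in hepatocytes.

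The promoters of Srxn1, Prdx1 and Gpx1 are shown because Srxn1 was the member that rose, Prdx1 was the other member with the same short motif, and Gpx1 had values close to equal in all groups. Each is the 250 bases before the RefSeq start site (assembly GRCm38.p6), on the gene's own strand, which is the plus strand for all 3: chr2:152105274-152105523 for Srxn1, chr4:116685349-116685598 for Prdx1 and chr9:108338830-108339079 for Gpx1. Capitals mark matches to TGAGTCA, TGACNNNGC or TGAGNNNGC on either strand, TGACNNNGC and TGAGNNNGC being core sequences of the antioxidant response element, to which NRF2 binds. The motifs were chosen after the Srxn1 window had been read.

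Srxn1: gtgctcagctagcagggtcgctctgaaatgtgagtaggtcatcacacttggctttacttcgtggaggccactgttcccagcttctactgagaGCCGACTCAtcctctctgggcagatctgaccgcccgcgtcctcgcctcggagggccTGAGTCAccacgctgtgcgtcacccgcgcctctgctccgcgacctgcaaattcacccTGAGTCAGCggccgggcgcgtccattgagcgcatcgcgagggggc
Prdx1: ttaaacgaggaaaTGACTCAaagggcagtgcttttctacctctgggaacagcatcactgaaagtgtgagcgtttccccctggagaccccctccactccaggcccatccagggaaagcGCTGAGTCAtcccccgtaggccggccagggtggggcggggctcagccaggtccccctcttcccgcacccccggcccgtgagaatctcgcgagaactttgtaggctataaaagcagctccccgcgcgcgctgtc
Gpx1: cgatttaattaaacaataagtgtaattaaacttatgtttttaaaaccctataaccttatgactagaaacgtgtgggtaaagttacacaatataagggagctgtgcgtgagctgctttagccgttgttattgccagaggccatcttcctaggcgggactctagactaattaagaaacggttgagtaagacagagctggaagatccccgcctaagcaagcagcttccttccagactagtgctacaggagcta

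In the Srxn1 window TGAGTCA stood at 2 places, 102 to 96 and 45 to 39 bases before the start. TGAGNNNGC also stood at 2 places there, at 158 to 150 bases on the reverse strand and at 45 to 37 bases, the latter over the second TGAGTCA. The Prdx1 window held TGAGTCA 2 times as well, as its reverse complement TGACTCA at 237 to 231 bases and directly at 131 to 125 bases, the latter inside a TGACNNNGC on the reverse strand at 133 to 125 bases. Of 32851 windows of this length, 4.46% held TGAGTCA on either strand, and 0.167% held it at least 2 times. TGACNNNGC was in 10.2% of windows and TGAGNNNGC in 14.4%, and 23% of windows held either of them. Windows were listed for 9 of the 10 genes, and none of the 3 motifs stood in those of the other 7 genes. These matches describe letters and not bound sites. The motifs were chosen with the Srxn1 window already read, so the shares do not test its matches. The share with at least 2 matches was counted for TGAGTCA only.

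The arrays had the profile of liver. The 6 hepatocyte markers averaged 12.22 to 12.54 on every array and none of the 6 was called between genotypes. Markers of cholangiocytes averaged at most 2.39 and those of lymphocytes at most 2.43, where the median value of an array was 2.91 to 2.99. Txnrd1 itself was read 10.26 to 10.58 on the 6 arrays labelled liver-null and 9.43 to 9.81 on the 6 wild-type arrays by its brightest probe set, and so was higher and not lower in the liver-null group (averaged log2 difference 0.75, SE 0.088, limma adjusted p = 0.000858). Its other 2 probe sets lay at 1.33 to 2.06 on all arrays. The part of the gene that these probes read in relation to the deleted part is not given in the sources used here, so Txnrd1 does not check the labels. One array of each group, those of mice 10, 14, 16 and 17, had an upper quartile of 5.49 to 5.58, against 5.73 to 5.85 on the other 8 arrays. The labels name no such set, and values within each set are given beside Srxn1, Gpx4 and Gpx1.

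Srxn1 was the only one of the 7 measured members called different between genotypes, and it was higher in liver-null livers under both treatments. The brightest of its 4 probe sets read 7.11, 7.51 and 7.41 in wild-type saline mice 8, 9 and 10, and 8.80, 8.89 and 8.18 in liver-null saline mice 4, 5 and 16. After APAP it read 7.16, 7.13 and 7.50 in wild-type mice 12, 13 and 14, and 8.87, 8.61 and 9.07 in liver-null mice 2, 3 and 17. The lowest liver-null array, saline mouse 16, stood above the highest wild-type array, saline mouse 9, so that the genotypes did not overlap, as for 2.27% of genes with all 6 liver-null arrays above.

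The genotype difference of Srxn1 was 1.28 log2 units in saline (SE 0.20, 95% interval 0.84 to 1.73, 2.43-fold, limma adjusted p = 0.0194). After APAP it was 1.59 (SE 0.20, 95% interval 1.15 to 2.03, 3.01-fold, limma adjusted p = 0.00434). Averaged over the treatments it was 1.44 (SE 0.14, 95% interval 1.12 to 1.75, 2.71-fold, limma adjusted p = 0.000317), with all 6 liver-null arrays above all 6 wild-type arrays. These p-values come from 1 limma fit over 4 group means and 12 arrays, Benjamini-Hochberg adjusted over all 8469 genes, two-sided, with a call at an adjusted p under 0.05. In saline the call was lost without wild-type saline mouse 8 (difference 1.16, adjusted p = 0.0985), wild-type saline mouse 9 (1.36, 0.0715), liver-null saline mouse 4 (1.19, 0.0777) or liver-null saline mouse 5 (1.15, 0.077), and when only the 2 saline groups entered the limma fit (1.28, adjusted p = 0.0885). The calls after APAP and over both treatments held with each of the 12 arrays left out.

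**Figure D1:**
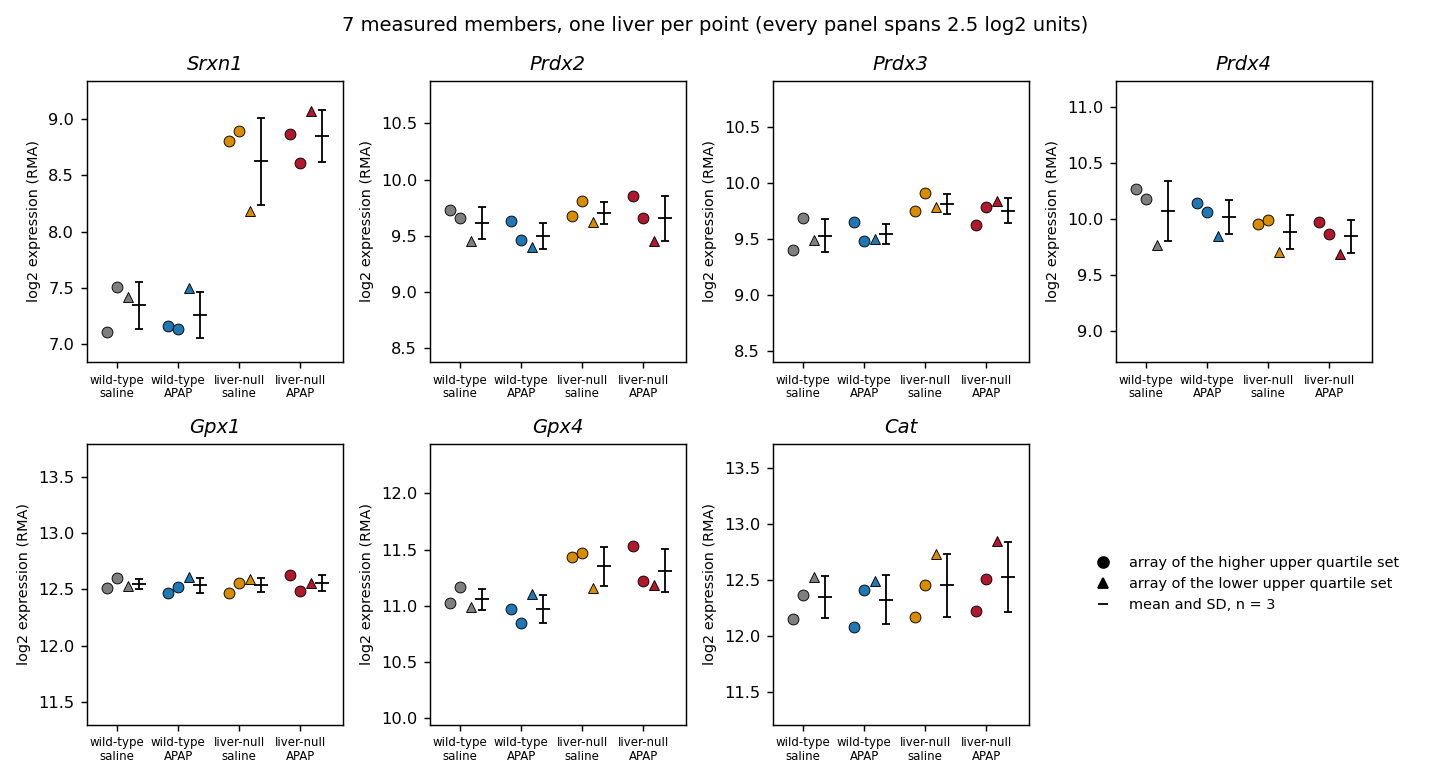
Log2 expression (RMA) of each of the 7 measured members in the 12 livers, with groups on the horizontal axis, 1 point per liver, and a bar for the mean of 3; triangles are the 4 arrays of lower upper quartile. Every panel spans the same number of log2 units. Srxn1 alone has its 6 liver-null points, 8.18 to 9.07, above its 6 wild-type points, 7.11 to 7.51.

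The other 3 probe sets of Srxn1 lay lower, and of them 2 were also called. Probe set 1451680_at read 3.08, 3.54 and 3.48 in wild-type saline mice, 3.33, 3.46 and 3.61 in wild-type APAP mice, 4.82, 5.07 and 4.23 in liver-null saline mice and 4.84, 4.76 and 4.82 in liver-null APAP mice. All 6 liver-null arrays were above all 6 wild-type arrays, and the averaged difference was 1.34 (SE 0.14, limma adjusted p = 0.000385 over 13124 probe sets). Probe set 1425351_at read 2.79 to 3.02 on the wild-type arrays and 3.61 to 4.11 on the liver-null arrays, with an averaged difference of 1.04 (SE 0.096, limma adjusted p = 0.00022). Those wild-type values are near the array medians.

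The smallest difference was that of 1419942_at, which read 3.60 to 3.99 on the wild-type and 3.83 to 4.32 on the liver-null arrays. The genotypes overlapped there, and the averaged difference of 0.37 (SE 0.097, limma adjusted p = 0.0645) did not pass. Thus 3 of the 4 Srxn1 probe sets, and none of the 11 other member probe sets, were called in each of the 3 genotype comparisons. Of all probe sets, 0.366% were called higher in saline, 0.594% after APAP and 1.91% over both treatments. The 4 Srxn1 probe sets read the same gene on the same arrays, so they are not separate results.

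**Figure D2:**
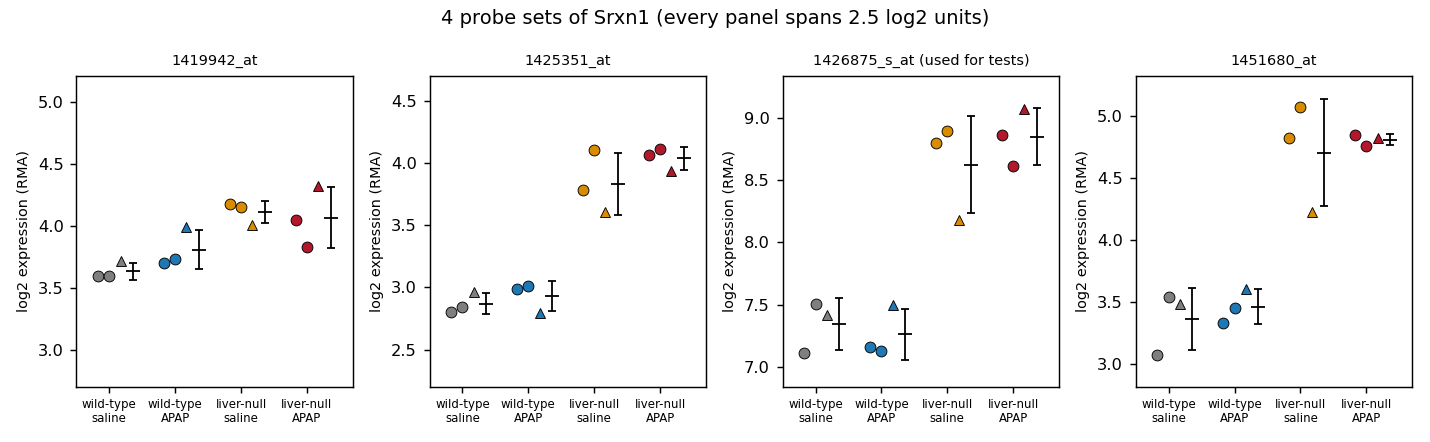
Log2 expression (RMA) of the 4 Srxn1 probe sets in the 12 livers, with groups on the horizontal axis, 1 point per liver, bars for group means and triangles for the 4 arrays of lower upper quartile. The genotypes separate for 1426875_s_at, 1425351_at and 1451680_at and overlap for 1419942_at.

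Within the 8 arrays of higher upper quartile the Srxn1 difference was 1.54 in saline and 1.60 after APAP. Between the 4 arrays of lower upper quartile, 1 a group, it was 0.77 in saline and 1.58 after APAP. The saline value there rests on liver-null mouse 16, the lowest liver-null array. With the array set as a covariate the averaged difference was 1.44 (limma adjusted p = 0.000416).

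The 3 genes of the 8469 tested that tracked Srxn1 most closely were Aox1, an aldehyde oxidase, Tpm2, a tropomyosin, and Ugdh, which makes UDP-glucuronate. Likeness was the mean absolute gap between the 2 genes' log2 deviations from their own means over the 12 arrays. That gap was 0.17 for Aox1, 0.18 for Tpm2 and 0.22 for Ugdh, against a median of 0.73 over all genes. Their averaged genotype differences were 1.38 for Aox1, 1.23 for Tpm2 and 1.10 for Ugdh. Likeness over the same arrays largely sets these differences, so they are no independent evidence.

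Of the 7 members, 1 was therefore called in saline, where 0.638% of genes were called, 1 of 7 after APAP (0.768% of genes) and 1 of 7 over both treatments (4.46% of genes). The median difference of the 7 members was 0.10 in saline, 0.20 after APAP and 0.15 over both, against medians over all genes of -0.028, -0.0027 and -0.012. Over both treatments 6 of the 7 differences were positive, and the 6 members besides Srxn1 ranged from -0.18 to 0.32.

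**Figure D3:**
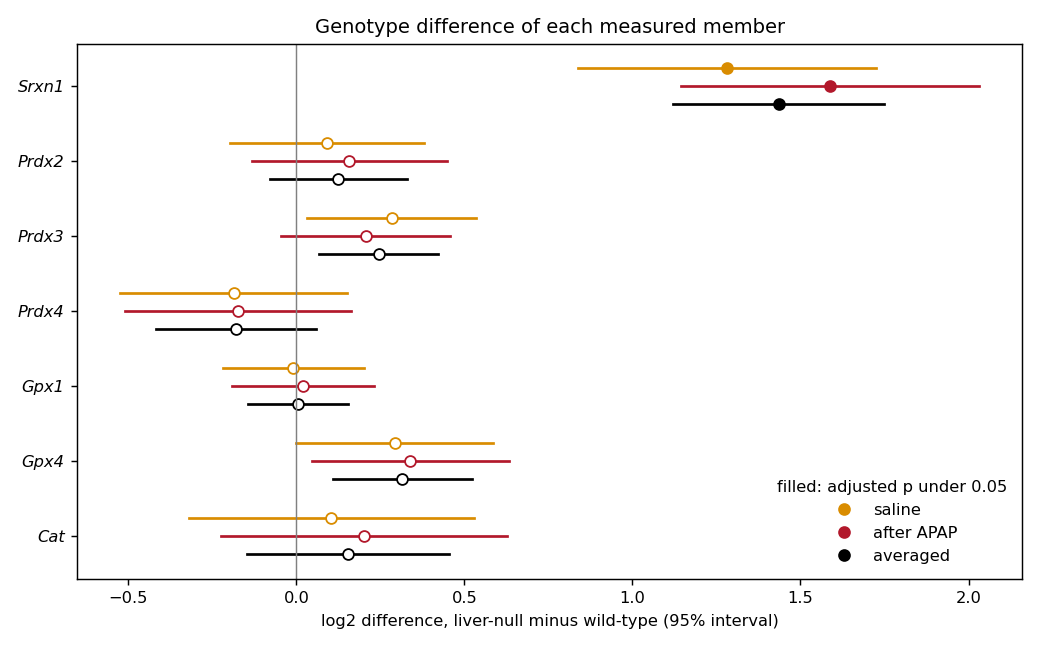
Log2 difference, liver-null minus wild-type, for the 7 measured members (vertical axis) in saline, after APAP and averaged over the treatments; points are limma estimates, lines their 95% intervals, and filled points passed an adjusted p under 0.05. Only the 3 Srxn1 points, 1.28, 1.59 and 1.44, are filled.

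Among the peroxiredoxins, Prdx3, the peroxiredoxin of mitochondria, read 9.40, 9.69 and 9.49 in wild-type saline mice and 9.75, 9.91 and 9.78 in liver-null saline mice. All 3 liver-null saline arrays were above the wild-type saline arrays, as they were for 6.48% of genes, and the difference of 0.28 (SE 0.11, limma adjusted p = 0.331) did not pass. After APAP it read 9.65, 9.48 and 9.50 in wild-type and 9.63, 9.78 and 9.84 in liver-null mice. The groups overlapped there through liver-null mouse 2. The averaged difference was 0.24 (SE 0.081, 95% interval 0.067 to 0.42, limma adjusted p = 0.127).

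Prdx2, a cytosolic peroxiredoxin that is abundant in red cells, read 9.73, 9.66 and 9.45 in wild-type saline mice and 9.68, 9.81 and 9.62 in liver-null saline mice by its brighter probe set. After APAP the same probe set read 9.63, 9.47 and 9.40 in wild-type and 9.86, 9.66 and 9.45 in liver-null mice. The groups overlapped under both treatments, and the averaged difference was 0.12 (95% interval -0.08 to 0.33, limma adjusted p = 0.59). The mean of the 3 erythroid markers on the array was 4.28 to 4.65 on wild-type and 3.98 to 4.22 on liver-null arrays, with no overlap, and 0 of the 2 tested were called. Most of that gap lay in Alas2, which averaged 8.47 in wild-type and 7.64 in liver-null livers (limma adjusted p = 0.0682), while Hba-a1 and Slc4a1 lay near the array medians or below. Their part in the Prdx2 and Cat values was not tested, and in whole tissue fewer cells of a type and less RNA per cell cannot be told apart.

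The second Prdx2 probe set, 1430979_a_at, gave the largest APAP difference of any member probe set. It read 3.30, 3.28 and 3.32 in wild-type saline mice and 4.52, 4.24 and 3.48 in wild-type APAP mice. The 3 APAP arrays stood above the saline arrays, as for 2.77% of probe sets, by a wide margin in mice 12 and 13 and a narrow one in mouse 14. The difference was 0.78 (SE 0.25, unadjusted p = 0.00876 and adjusted p = 1.00 by limma), so it did not pass, and the brighter probe set gave -0.11. None of the 15 member probe sets was called in the APAP comparisons or the interaction by limma, as 0% of all probe sets were. In liver-null mice this probe set read 3.46, 3.04 and 3.62 with saline and 3.22, 3.27 and 3.73 after APAP, which overlapped.

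Prdx4, the peroxiredoxin of the endoplasmic reticulum, had 3 probe sets that did not move together across the arrays. Its probe set of highest mean, 1416167_at, read 10.27, 10.18 and 9.77 in wild-type saline mice, 10.15, 10.06 and 9.85 in wild-type APAP mice, 9.96, 9.99 and 9.71 in liver-null saline mice and 9.98, 9.87 and 9.69 in liver-null APAP mice. The lowest array of every group was the one of lower upper quartile, and the averaged genotype difference was -0.18 (95% interval -0.42 to 0.058, limma adjusted p = 0.461). Probe set 1416166_a_at read 8.85, 9.48 and 10.46, then 9.34, 9.32 and 10.18, then 8.56, 9.59 and 10.24, and 8.96, 9.37 and 9.65 in the same order of groups. There the same 4 arrays were the highest of their groups.

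The median of the 4 arrays of lower upper quartile was 0.88 above that of the other 8 for 1416166_a_at, 1.08 above it for 1435731_x_at and 0.28 below it for 1416167_at (-0.28). Cat probe set 1416429_a_at was 0.64 above. For these 4 of the 15 member probe sets (26.7%) the 2 array sets did not overlap at all, where 17.6% of all probe sets tested did not. None of the 4 Srxn1 probe sets was among them. The sets cannot be traced to a step of the experiment from the labels.

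**Figure D4:**
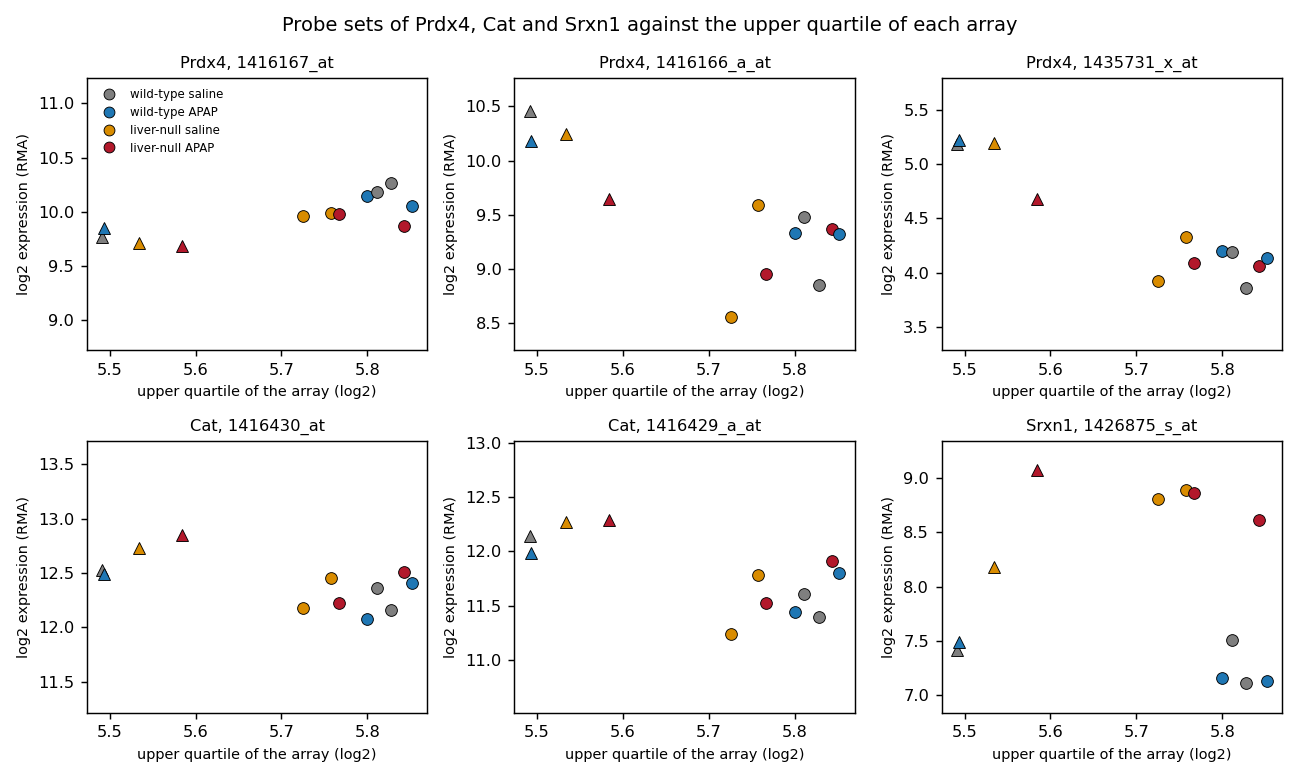
Log2 expression (RMA) of 6 probe sets of Prdx4, Cat and Srxn1 (vertical axis) against the upper quartile of each array in log2 units (horizontal axis), coloured by group, with triangles for the 4 arrays of lower upper quartile. The triangles lie above all circles for 2 Prdx4 probe sets and 1416429_a_at of Cat and below them for 1416167_at, while Srxn1 separates by genotype.

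For Prdx1, a cytosolic peroxiredoxin, only the 5 probe sets listed for both Prdx1 and Gm21399 could be read, so their values cannot be assigned to either. The other 4 spanned 12.14 to 12.37, 12.05 to 12.62, 12.48 to 12.79 and 8.45 to 9.20 over the 12 arrays. Probe set 1433866_x_at, the remaining one, read 10.85, 11.51 and 12.04 in wild-type saline mice, 11.22, 11.52 and 12.04 in wild-type APAP mice, 11.06, 11.80 and 12.53 in liver-null saline mice and 11.35, 11.72 and 12.36 in liver-null APAP mice. Its highest array in each group was again the one of lower upper quartile, as it was for 1434731_x_at and 1436691_x_at. None of the 5 was called in any of the 6 comparisons in a limma fit that took in probe sets of several genes. In that fit 0.625% of 13609 probe sets were called in saline, 0.757% after APAP, 3.69% over both treatments and 0% in the APAP comparisons and the interaction. The averaged genotype differences of the 5 were 0.015 to 0.27.

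Of the glutathione peroxidases, Gpx1, the cytosolic one and a major selenoprotein of liver, was close to equal everywhere. It read 12.51, 12.60 and 12.53 in wild-type saline mice, 12.47, 12.53 and 12.61 in wild-type APAP mice, 12.47, 12.56 and 12.59 in liver-null saline mice and 12.63, 12.48 and 12.56 in liver-null APAP mice. All 4 groups overlapped, and the averaged difference was 0.0055 with a 95% interval of -0.14 to 0.15 (limma adjusted p = 0.986). For APAP in wild-type mice Gpx1 differed by -0.058 within the 8 arrays of higher upper quartile and by 0.076 between the 2 of lower upper quartile.

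Gpx4, which reduces lipid peroxides within membranes, had the second largest difference. Its brighter probe set read 11.03, 11.17 and 10.99 in wild-type saline mice, 10.97, 10.85 and 11.10 in wild-type APAP mice, 11.43, 11.47 and 11.15 in liver-null saline mice and 11.53, 11.22 and 11.19 in liver-null APAP mice. The saline groups overlapped by liver-null mouse 16 against wild-type mouse 9, and the APAP groups did not overlap, as for 6.97% of genes. The averaged difference was 0.32 (SE 0.095, 95% interval 0.11 to 0.52, 1.24-fold) and did not pass (limma adjusted p = 0.0944). It did pass with the array set as a covariate (adjusted p = 0.0419 by limma), with array weights (0.0108) and with a trended robust variance prior (0.0384). Within the 8 arrays of higher upper quartile the Gpx4 difference was 0.35 in saline and 0.47 after APAP. Between the 4 arrays of lower upper quartile, 1 a group, it was 0.17 in saline and 0.083 after APAP, where the 2 APAP arrays read 11.10 and 11.19. For APAP in wild-type mice Gpx4 differed by -0.19 within the 8 arrays and by 0.12 between the other 2.

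The second Gpx4 probe set, 1456193_x_at, read 9.94, 10.05 and 9.91 in wild-type saline mice, 9.74, 9.57 and 9.92 in wild-type APAP mice, 10.47, 10.48 and 10.05 in liver-null saline mice and 10.47, 10.09 and 10.12 in liver-null APAP mice. All 6 liver-null arrays stood above the wild-type arrays, as for 2% of probe sets, the closest pair being liver-null saline mouse 16 and wild-type saline mouse 9, both 10.05. Its averaged difference was 0.43 (SE 0.11, limma adjusted p = 0.0553).

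Catalase read 12.16, 12.36 and 12.53 in wild-type saline mice, 12.08, 12.41 and 12.49 in wild-type APAP mice, 12.17, 12.46 and 12.73 in liver-null saline mice and 12.23, 12.51 and 12.85 in liver-null APAP mice, by its brighter probe set. The highest array of each group was the one of lower upper quartile, and all 4 groups overlapped. The averaged difference was 0.15 (SE 0.14, 95% interval -0.15 to 0.45, limma adjusted p = 0.669).

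APAP at this dose and time gave no call of a member in either genotype. In wild-type mice the 7 differences, APAP minus saline, ran from -0.11 (Prdx2) to 0.015 (Prdx3), and in liver-null mice from -0.061 (Prdx3) to 0.22 (Srxn1). The limma fit called 0 of 8469 genes (0%) in either comparison. At an unadjusted p under 0.05 it had 0 members and 143 genes (1.69%) in wild-type mice. In liver-null mice it had 0 members and 59 genes (0.697%). Both shares were below what a threshold of 0.05 gives where nothing differs, and the reason was not tested. The 95% intervals of the members ran from -0.53 to 0.40 in wild-type and from -0.38 to 0.67 in liver-null mice at their widest. The genotype comparisons and the APAP comparisons share arrays.

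For Srxn1 the APAP difference was -0.083 in wild-type mice (95% interval -0.53 to 0.36) and 0.22 in liver-null mice (95% interval -0.22 to 0.67). The genotype difference was thus 0.31 larger after APAP than in saline, with a 95% interval of -0.32 to 0.93 that includes no change (limma adjusted p = 0.999). For the interaction the limma fit called 0 of 8469 genes, and at an unadjusted p under 0.05 it had 0 members and 109 genes (1.29%). Between the arrays of lower upper quartile alone, liver-null mice 16 and 17, the Srxn1 APAP difference was 0.89, against -0.11 within the other set.

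Around these enzymes, 9 lists of related genes held 61 tested genes, of which 16 rose and 0 fell over both treatments, where 2.28% of all genes were called higher and 2.18% lower. In saline 5 rose and 0 fell (0.366% and 0.272% of all genes), and after APAP 9 rose and 0 fell (0.579% and 0.189%). Each of these counts of genes that rose includes Txnrd1, the targeted gene, whose reading does not check the labels. By limma 0 were called in the APAP comparisons or the interaction. The lists were drawn up with earlier results of these data known, so the direction of the NRF2 targets among them is no independent evidence.

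In the glutathione and NADPH supply, 4 of 7 tested genes rose over both treatments, and the median difference was 0.81. They were Me1, the cytosolic malic enzyme (1.26, SE 0.21), Gclc, the catalytic subunit that starts glutathione synthesis (0.96, SE 0.20), Gsr, glutathione reductase (0.86, SE 0.081), and Pgd, of the pentose phosphate pathway (0.81, SE 0.11). Their limma adjusted p-values were 0.00686, 0.021, 0.000243 and 0.00281. Of the other glutathione peroxidases, Gpx2, the epithelial form, rose by 0.73 (SE 0.15, limma adjusted p = 0.0206) as 1 of 4 tested, from 2.81 to 3.54. The wild-type mean lay below the median of every array (2.91 to 2.99), so Gpx2 was not shown to be above background there and the size of its difference is uncertain.

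In the thioredoxin and glutaredoxin supply, 1 of 11 genes was called, which was Txnrd1, and the median difference was 0.033. Txn1, the cytosolic thioredoxin, differed by 0.15 (limma adjusted p = 0.357). Among methionine sulfoxide reductases Msra rose by 0.38 (SE 0.082, limma adjusted p = 0.0233), as 1 of 3. Of 10 peroxisomal genes, Pex11a, which acts in peroxisome division, rose by 0.94 (SE 0.18, limma adjusted p = 0.0117) and Acox2, a branched-chain acyl-CoA oxidase, rose by 0.53 (SE 0.082, limma adjusted p = 0.00517), with a list median of -0.053.

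None of the 4 genes of the superoxide dismutase list (Sod1, Sod2, Sod3 and the chaperone gene Ccs) was called, the largest difference being -0.17 for Sod3. None of 9 genes of oxidative folding was called, the largest being 0.29 for Gpx7, and none of 7 genes of selenoprotein synthesis, the largest being -0.42 for Scly (limma adjusted p = 0.0777). Of the 8 tested NRF2 targets outside these lists, 7 rose over both treatments: Cbr3 by 5.99, Nqo1 by 3.26, Abcc3 by 1.24, Ugdh by 1.10, Blvrb by 1.08, Ephx1 by 0.83 and Fth1 by 0.31. The list held 10 genes, of which 8 were tested, and the listed Hmox1, Slc7a11 and Ftl1 were not among the 7. The median of the tested genes of the list was 1.17, against -0.012 over all genes.

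**Figure D5:**
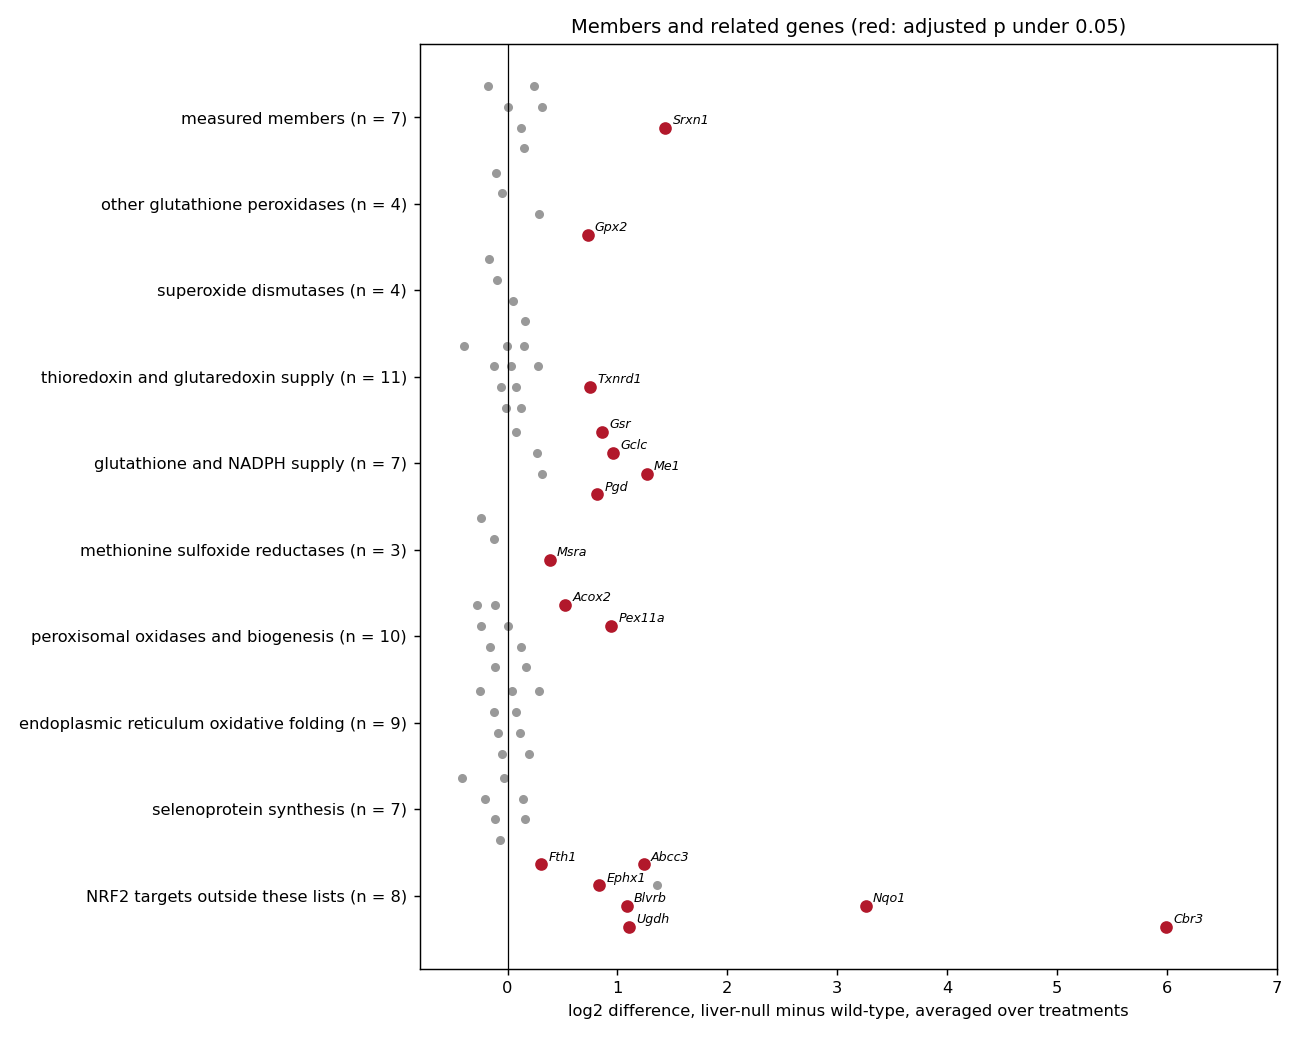
Log2 difference, liver-null minus wild-type, averaged over treatments (horizontal axis) for the measured members and for 9 lists of related genes (vertical axis), 1 point per gene, red where the limma adjusted p was under 0.05. Srxn1, at 1.44, is the only red point among the 7 members, and 7 of the 8 NRF2 targets outside the lists are red, the farthest being Cbr3 at 5.99.

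Of the marker lists for other cells, the only gene called between genotypes was Cela1, an elastase, which was lower in liver-null livers (6.16 against 7.93, limma adjusted p = 0.000223). The mean of the 2 acinar genes on the array was 4.39 to 4.82 on wild-type and 3.68 to 3.83 on liver-null arrays, and the other of the 2, Cpb1, lay at 1.34 on average. The stellate cell and fibroblast list averaged 5.03 to 5.45 on wild-type and 4.59 to 5.16 on liver-null arrays, and 0 of its 6 genes were called. The Kupffer cell, endothelial and neutrophil lists overlapped between genotypes, and 0 of their 14 tested genes were called. The part of these genes in the Srxn1 difference was not tested.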

How the data were processed

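The authors deposited 1 log2 value for each probe set and array, from RMA, per the submitters' processing notes. Its version is not given in the sources used here. No further normalization was applied.

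Genes were named from the platform annotation. Of 22690 probe sets, 20380 have 1 gene symbol and 691 have several. For each gene the probe set of highest mean among those with 1 symbol was kept, and genes entered the test if above an array's 40th percentile in 3 or more of the 12. The model was fitted in R 4.3.3 by limma 3.58.1 (lmFit, then eBayes) with 4 group means, 8 residual and 3.43 prior degrees of freedom, in 6 comparisons, with Benjamini-Hochberg adjustment. A limma fit of the genotype difference in saline was run separately on simulated data with independent noise and no array sets. The choice of probe sets and the other comparisons were not tested in that way. The members, the lists and the tests were chosen with earlier results of these data known. Named are all 10 members, Txnrd1, every called gene of a list or, where none was called, the 1 of largest averaged difference, and the 3 genes most like Srxn1. The fit with probe sets of several genes was chosen after seeing the data. For arrays, the number of arrays limits the precision. No array duplicated another (no pair shared over 0.00881% of its values). Alternatives were another filter, probe set, normalization, weighting, variance prior, the array set as a covariate, the 2 groups alone and each array left out.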

Additional observations from a re-analysis of the deposited data

How the results depend on the processing

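No paired analysis was possible because no replicate number is shared between groups. Of 504 member differences with 1 array left out, 453 kept direction and side of the threshold, 4 lost the Srxn1 saline call and 47 small, uncalled ones changed sign. Of 412 under other alternatives, 365 were unchanged, 4 lost a call, 4 gained one, 32 changed sign and 7 moved. Differences within 1 array set carry no p-value, so only their values were compared. The Srxn1 difference stayed positive in all 71 genotype alternatives and lost its call in 8; the cause was not tested.

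The count of genes called in saline (54) was 104 with quantile normalization, 19 with the 2 groups alone, 243 with the array set as a covariate, 1323 with array weights (0.363 for wild-type saline mouse 10 to 4.63 for wild-type saline mouse 9) and 121 with a trended robust prior. After APAP (65) it was 39 with the 2 groups alone, 185, 210 and 98. Over both treatments (378) it was 590 with quantile normalization, 882 with the covariate and 1409 with weights. Members called went from 1 to 0 in saline with the 2 groups alone, and over both treatments to 2 with the covariate (Gpx4), 3 with weights (Gpx4 and Prdx3) and 2 with the trended prior (Gpx4). Leaving out arrays gave 10 to 92 genes in saline, 21 to 60 after APAP and 208 to 416 over both, and 0 to 1 member in saline.

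Uncalled differences changed sign as follows. Prdx2 by 1430979_a_at, also its probe set of largest variance, was -0.68 after APAP and -0.30 over both between genotypes, 0.78 and 0.028 for APAP in wild-type and liver-null, and -0.75 for the interaction. Prdx4 by 1416166_a_at, of largest variance, was 0.016 for APAP in wild-type and -0.15 for the interaction, and by 1435731_x_at 0.071 between genotypes in saline, 0.10 and -0.31. Cat by 1416429_a_at, of largest variance, was 0.028 for APAP in wild-type. Srxn1 for APAP in wild-type was 0.17, 0.061 and 0.10 by 1419942_at, 1425351_at and 1451680_at, and by 1419942_at -0.046 for APAP in liver-null and -0.22 for the interaction. Quantile normalization gave Gpx1 -0.023 after APAP and -0.029 over both, 0.027 for APAP in wild-type, and Prdx4 -0.023 for the interaction. Weights gave Gpx1 -0.014 over both and -0.020 for APAP in liver-null, Prdx3 -0.11 for APAP in wild-type and Srxn1 -0.071 for APAP in liver-null.

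With arrays left out, those that changed sign ranged between genotypes from -0.036 to 0.026 (Gpx1, saline), -0.035 to 0.24 (Cat, saline), -0.015 to 0.057 (Gpx1, APAP) and -0.012 to 0.024 (Gpx1, both). For APAP in wild-type they ranged from -0.047 to 0.095 (Prdx3), -0.21 to 0.045 (Prdx4), -0.049 to 0.018 (Gpx1) and -0.12 to 0.10 (Cat). For APAP in liver-null they ranged from -0.15 to 0.056 (Prdx2), -0.11 to 0.00040 (Prdx3), -0.13 to 0.038 (Prdx4), -0.019 to 0.053 (Gpx1), -0.15 to 0.026 (Gpx4) and -0.086 to 0.22 (Cat). For the interaction they ranged from -0.033 to 0.17 (Prdx2), -0.085 to 0.17 (Prdx4), -0.0060 to 0.066 (Gpx1), -0.063 to 0.11 (Gpx4) and -0.063 to 0.25 (Cat).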
